A study of Homo sapiens with 4 samples.

Results

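Genes of the actin and myosin cytoskeleton and of its transcription factor SRF were followed in MDA-MB-231 cells, an established human triple-negative breast cancer line with mesenchymal features. The group holds 46 gene symbols, given as a list of symbols with no threshold on measured values, though with earlier results of these data known, of the 48162 genes listed in the deposited table. The cells received MGH-CP1, at 10 µM by the sample labels, or vehicle control for 24 h, with 2 RNA-seq libraries per condition. The methods of the study print the same number for the dose with mM as its unit. MGH-CP1 is an inhibitor of the palmitoylation of TEAD proteins, the DNA-binding partners of YAP and TAZ, and the labels name no genetic change in either condition. The comparison asks how the polyadenylated RNA of the cytoskeleton genes differed between inhibited and control cells, since SRF with its MRTF coactivators and YAP with TEAD share cytoskeletal target genes. The labels do not say whether the libraries of a condition came from separate cultures, so the p-values measure the spread between these libraries.

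Actin filaments are built from monomers that profilin delivers and thymosins and cofilins hold back or release. Formins and the Arp2/3 complex start and extend filaments, crosslinkers and tropomyosins shape them into bundles, and non-muscle myosin II pulls on them under the control of the ROCK kinases. SRF binds the CArG box in promoters, and its coactivators MRTF-A and MRTF-B, encoded by MKL1 and MKL2, enter the nucleus when the pool of free actin monomers falls. Through these coactivators SRF responds to the pool of the actin whose genes it drives.

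The promoters of the group hold the letters of both factors, and a few windows are shown because the genes in them carry the results that follow. The sequences are from RefSeq (build GRCh38.p14), which had a promoter window for 42 of the 46 genes, several for some genes, and 74 in all. ACTB, FSCN1, TAGLN and MYL9 had none. A window belongs to any RefSeq start of a gene, and a start can lie inside the gene, as at MYLK and DIAPH3. Bases after the start were found in a GENCODE transcript of the same gene and strand for 58 of the 74 windows. Which transcript each start serves was not determined. The CArG box was searched on both strands in the 250 bases before each start, and was found for 7 of the 42 genes (16.7%), against 1.44% of all 27305 RefSeq genes with a window. The 6 letters CATTCC, the core that TEAD proteins bind, were searched in the same bases, also as their reverse complement GGAATG, and were found for 11 of the 42 genes (26.2%), against 14.3% of all genes with a window. Counted by window, the CArG box was in 9.46% of the 74 windows against 1.16% of all 35116 windows, and CATTCC in 16.2% against 11.9%. The group was chosen as SRF and actin cytoskeleton genes, so a raised share with the CArG box follows from that choice and is no support. It was also chosen because SRF and TEAD share cytoskeletal targets, with earlier results of these data known. The share with CATTCC is therefore no support either. A CATTCC match can overlap a CArG box at its ends but cannot lie within it. In the 60-base windows the capitals mark the CArG box.
SRF, chr6:43171209-43171268, plus strand: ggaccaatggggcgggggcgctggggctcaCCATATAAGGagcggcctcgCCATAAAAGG
ACTG1, chr17:81512859-81512918, minus strand: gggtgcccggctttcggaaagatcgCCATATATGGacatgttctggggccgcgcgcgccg
ACTN1, chr14:68977703-68977762, minus strand: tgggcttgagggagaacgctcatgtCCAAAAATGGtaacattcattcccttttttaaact
CNN2, chr19:1026494-1026553, plus strand: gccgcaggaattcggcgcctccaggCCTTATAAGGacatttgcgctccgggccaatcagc
MYLK, chr3:123620608-123620667, minus strand: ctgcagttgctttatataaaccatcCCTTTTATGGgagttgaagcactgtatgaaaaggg
ROCK2, chr2:11345476-11345535, minus strand: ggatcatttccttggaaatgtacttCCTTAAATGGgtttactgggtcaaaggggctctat

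The SRF promoter held 2 CArG boxes in the last 30 bases before its start, and TPM4 was the remaining gene with this box. In the next windows the capitals mark CATTCC or its reverse complement, and the genes are those among the 11 with the largest falls, apart from ACTN1, whose window above holds the same letters in lower case after its CArG box, together with PFN1.
DIAPH3, chr13:60013190-60013249, minus strand: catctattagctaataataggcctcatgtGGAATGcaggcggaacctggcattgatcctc
MYH10, chr17:8630896-8630955, minus strand: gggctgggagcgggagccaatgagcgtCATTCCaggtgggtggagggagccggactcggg
LIMA1, chr12:50202174-50202233, minus strand: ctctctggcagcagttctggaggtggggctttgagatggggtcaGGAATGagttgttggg
CNN3, chr1:94925879-94925938, minus strand: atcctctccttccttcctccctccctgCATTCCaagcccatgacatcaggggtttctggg
PFN1, chr17:4948598-4948657, minus strand: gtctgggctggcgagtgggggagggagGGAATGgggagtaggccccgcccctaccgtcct

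The other genes with CATTCC were MKL2, ACTA2, CALD1, MYH9 and ROCK2, and ACTN1 and ROCK2 held both kinds of match. A match is a run of letters and not a measured binding site.

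The libraries held 25455533 and 25508824 fragments on genes in the vehicle control and 17997221 and 17577930 after MGH-CP1. Values are FPKM, fragments scaled by gene length and by the fragments of the library. VIM (259 to 281 FPKM), CD44 (198 to 221 FPKM), AXL, CAV1 and MSN, which mark this line, were present in all 4 libraries. AXL was lower after MGH-CP1, with 274 and 293 FPKM against 149 and 187 (log2 fold change -0.76, adjusted p = 4.25e-04), and so was CAV1 (-0.49, adjusted p = 1.00e-04). ESR1, PGR and CDH1, which mark luminal and epithelial cells, were under the filter, GATA3 and EPCAM stood at 4.17 to 5.65 and 12.4 to 16.4 FPKM, and of 3 leukocyte and endothelial markers none exceeded 0.0321 FPKM.

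More genes of the group were lower than higher after MGH-CP1. Of the 44 genes with a mean of at least 1 FPKM, 22 were lower and 9 higher at an adjusted p under 0.05 (limma on log2(FPKM + 1), Benjamini-Hochberg over all 12080 genes tested), and 13 were not called. Over all genes tested, 23.8% were called lower and 27.1% higher, 50.8% together. Of the 9 higher genes, TAGLN passed this filter only through the MGH-CP1 libraries. With no filter on low values, 12 of 45 genes of the group were called lower and 5 higher, beside 7.41% lower and 9.16% higher over all 24878 genes then tested. The median log2 fold change of the 44 genes was -0.15, beside 0.01 for all genes. It ran from -0.16 to -0.12 when a library was left out, and 29 of the 44 were below 0. Both MGH-CP1 libraries lay below both vehicle control libraries for 26 genes and above them for 12, while over all genes 37.4% lay below and 39.8% above, 77.2% together. Falls of at least 0.5 on the log2 scale were called for 6 genes, DIAPH3, MYH10, ABL2, DIAPH1, LIMA1 and MYLK, where the share over all genes was 6.16%. Rises of that size were called for TPM2 and FSCN1, where the share over all genes was 10.4%. The 46 genes together took 2.72% and 2.70% of all fragments in the vehicle control and 2.28% and 2.37% after MGH-CP1. In bulk RNA, fewer cells with a transcript and less of it per cell cannot be told apart.

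**Figure D1:**
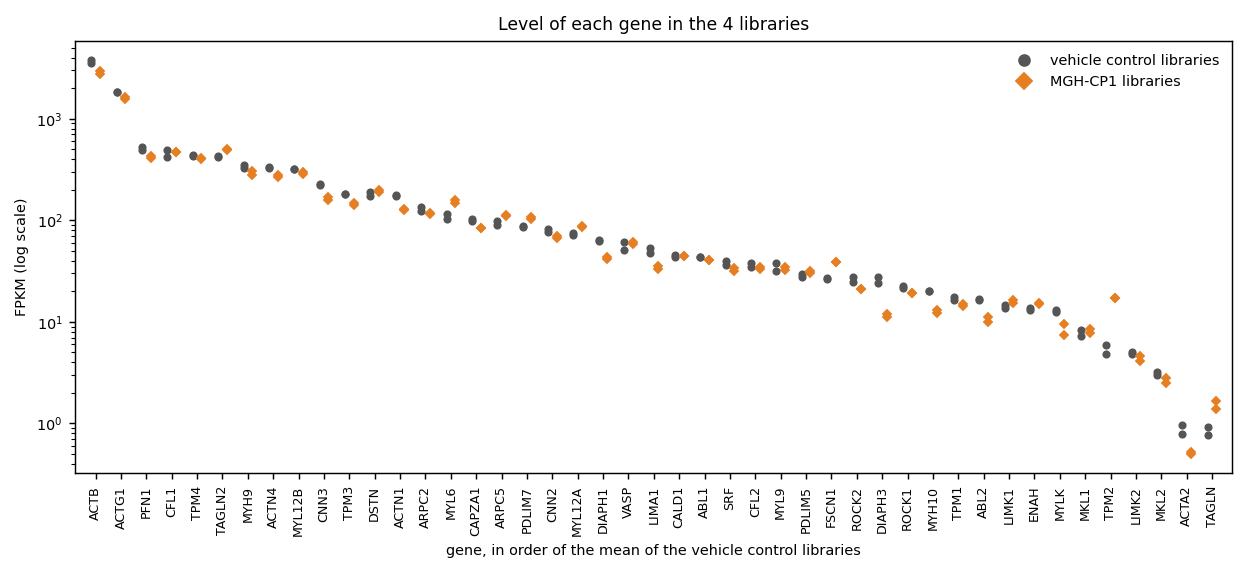
FPKM on a log axis for the 45 genes with any fragment, in order of the mean of the vehicle control, with grey circles for the 2 vehicle control libraries and orange diamonds for the 2 MGH-CP1 libraries. Levels ran from ACTB, at 3756 FPKM in the highest library, to under 1 FPKM for ACTA2, and the libraries of TPM2, DIAPH3 and FSCN1 are visibly apart.

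SRF itself (chr6:43139037-43149243 in hg19, plus strand) was slightly lower after treatment. It measured 36.0 and 39.4 FPKM in the vehicle control and 31.8 and 33.8 after MGH-CP1, without overlap. The log2 fold change was -0.19 ± 0.06 (SE), with an adjusted p of 0.0309, and the call was lost without vehicle control replicate 2 (adjusted p = 0.145) or without MGH-CP1 replicate 1 (0.165). MKL1, which encodes MRTF-A, stood at 8.28 and 7.31 FPKM against 7.76 and 8.54, with overlapping groups and a log2 fold change of 0.06 ± 0.08 (adjusted p = 0.589). MKL2, which encodes MRTF-B, stood at 3.25 and 2.99 FPKM against 2.82 and 2.52, a log2 fold change of -0.17 with a 95% interval of -0.40 to 0.06 (adjusted p = 0.189). Neither coactivator was called. The interval of MKL2 includes the change of SRF. That of MKL1, -0.135 to 0.251, does not, but it overlaps the interval of SRF, -0.335 to -0.0505. A difference between these genes was not tested. SRF was not called under quantile normalization (adjusted p = 0.0556), without the variance trend (0.0771) or with no filter on low values (0.130).

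The cytoplasmic actins, the main actins of non-muscle cells, were both lower. ACTB (chr7:5566782-5603415 in hg19, minus strand) had 3756 and 3566 FPKM in the vehicle control and 2756 and 2974 after MGH-CP1, with a log2 fold change of -0.35 ± 0.06 (SE) with an adjusted p of 0.00199. ACTG1 had 1852 and 1822 FPKM against 1556 and 1633, a log2 fold change of -0.20 ± 0.05 (adjusted p = 0.0121). Together the 2 genes went from 1.26% and 1.21% of all fragments to 0.970% and 1.04%. ACTB made up 67.0% and 66.2% of the actin FPKM in the vehicle control and 63.9% and 64.6% after MGH-CP1, so the shares did not overlap. Quantile normalization moved the log2 fold changes to -0.74 for ACTB and -0.69 for ACTG1, and with no filter on low values neither was called (adjusted p = 0.154 and 0.210). The call of ACTG1 was also lost without MGH-CP1 replicate 1 (adjusted p = 0.123).

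ACTA2, the smooth muscle actin, was not tested because its mean was under 1 FPKM. It had 0.962 and 0.781 FPKM in the vehicle control and 0.506 and 0.518 after MGH-CP1, from 43, 35, 16 and 16 fragments. ACTA2 lies opposite FAS, STAMBPL1 and ACTA2-AS1, and STAMBPL1 alone had 849 to 1670 fragments. Whether the counting used strand is not stated in the sources used here, so reads of opposite genes may not be separated.

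Among the actin crosslinkers, both alpha-actinins fell and fascin rose. ACTN1, the alpha-actinin of stress fibres and focal adhesions (chr14:69340860-69446157 in hg19, minus strand), had 175 and 178 FPKM in the vehicle control and 126 and 129 after MGH-CP1, with a log2 fold change of -0.47 ± 0.04 (SE) with an adjusted p of 1.19e-04. ACTN4, its close relative, had 324 and 335 FPKM against 269 and 277, a log2 fold change of -0.27 ± 0.05 (adjusted p = 0.00192). FSCN1 (chr7:5632439-5646286 in hg19, plus strand), which packs filaments into the parallel bundles of filopodia, had 26.2 and 26.9 FPKM against 39.3 and 39.1. Its log2 fold change was 0.55 ± 0.05 (adjusted p = 1.05e-04). The groups of all 3 genes were apart. As a ratio within each library, chosen after the values were seen, FSCN1 stood at 0.149 and 0.151 of the FPKM of ACTN1 in the vehicle control and at 0.311 and 0.304 after MGH-CP1.

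The calponin family, which binds along filaments and restrains myosin, held called genes in both directions. CNN3, a calponin of non-muscle cells (chr1:95362507-95392834 in hg19, minus strand), had 222 and 229 FPKM in the vehicle control and 159 and 168 after MGH-CP1, with a log2 fold change of -0.46 ± 0.05 (SE) with an adjusted p of 2.07e-04. CNN2 had 76.4 and 81.8 FPKM against 70.0 and 67.7, a log2 fold change of -0.20 whose call was lost without vehicle control replicate 2 (adjusted p = 0.0593) or MGH-CP1 replicate 2 (0.0852). The smooth muscle calponin CNN1 was at 0 in all 4 libraries, where 3 fragments would be 0.0636 to 0.0924 FPKM.

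TAGLN2, the transgelin of non-muscle cells, rose from 422 and 434 FPKM to 503 and 497, a log2 fold change of 0.23 ± 0.05 (SE, adjusted p = 0.00432) that was not called with no filter on low values (0.0535) and was 0.15 with the length trend removed. TAGLN, the smooth muscle transgelin and a textbook SRF target, was low throughout, with 0.917 and 0.773 FPKM in the vehicle control and 1.38 and 1.67 after MGH-CP1. Its log2 fold change of 0.45 ± 0.13 was called (adjusted p = 0.0197), was lost without vehicle control replicate 2 (adjusted p = 0.0999) or MGH-CP1 replicate 2 (0.0837), and stood at 0.28 without a call under quantile normalization (0.107), at 0.78 with a pseudocount of 0.1 and at 0.85 in limma voom. TAGLN passed the filter only through the MGH-CP1 libraries, with a mean of 0.845 FPKM in the vehicle control, so its call is no support for a rise. It had 65 to 97 fragments and lies opposite PCSK7, which had 789 to 1001. CALD1, which encodes caldesmon, had 45.8 and 43.2 FPKM against 44.2 and 44.5, with overlapping groups and a log2 fold change of 0.00 whose 95% interval ran from -0.12 to 0.12.

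The tropomyosins, coiled coils that lie along the filament and set which myosins and formins reach it, diverged. TPM2, which encodes beta-tropomyosin (chr9:35681989-35691017 in hg19, minus strand), had 4.87 and 5.95 FPKM in the vehicle control and 17.1 and 17.4 after MGH-CP1, which is 3.19 times as much. Its log2 fold change was 1.52 ± 0.09 (SE, adjusted p = 2.22e-05), place 35 in the order of rises among the 12080 genes tested. TPM3 fell from 181 and 183 FPKM to 148 and 143, a log2 fold change of -0.32 ± 0.05 (adjusted p = 7.64e-04). TPM1 had 16.6 and 17.5 FPKM against 14.4 and 15.02, a log2 fold change of -0.20 ± 0.06 (adjusted p = 0.0259), and its call was lost without vehicle control replicate 2 (adjusted p = 0.115), MGH-CP1 replicate 1 (0.128) or MGH-CP1 replicate 2 (0.0515). TPM4, the most abundant, had 429 and 435 FPKM against 405 and 409, a log2 fold change of -0.09 that was not called (adjusted p = 0.145) but was called under quantile normalization (0.0074) and with the trend on gene length removed (0.0487). TPM2 thus supplied 0.771% and 0.928% of the tropomyosin FPKM in the vehicle control and 2.93% and 2.98% after MGH-CP1, while TPM3 went from 28.7% and 28.5% to 25.4% and 24.4%. Named processed copies of TPM3 held 196 to 330 fragments beside 10138 to 18865 for TPM3, and how the counting shared reads among copies is not stated in the sources used here. The sum of the family fell from 631 and 641 FPKM to 584 and 584.

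**Figure D2:**
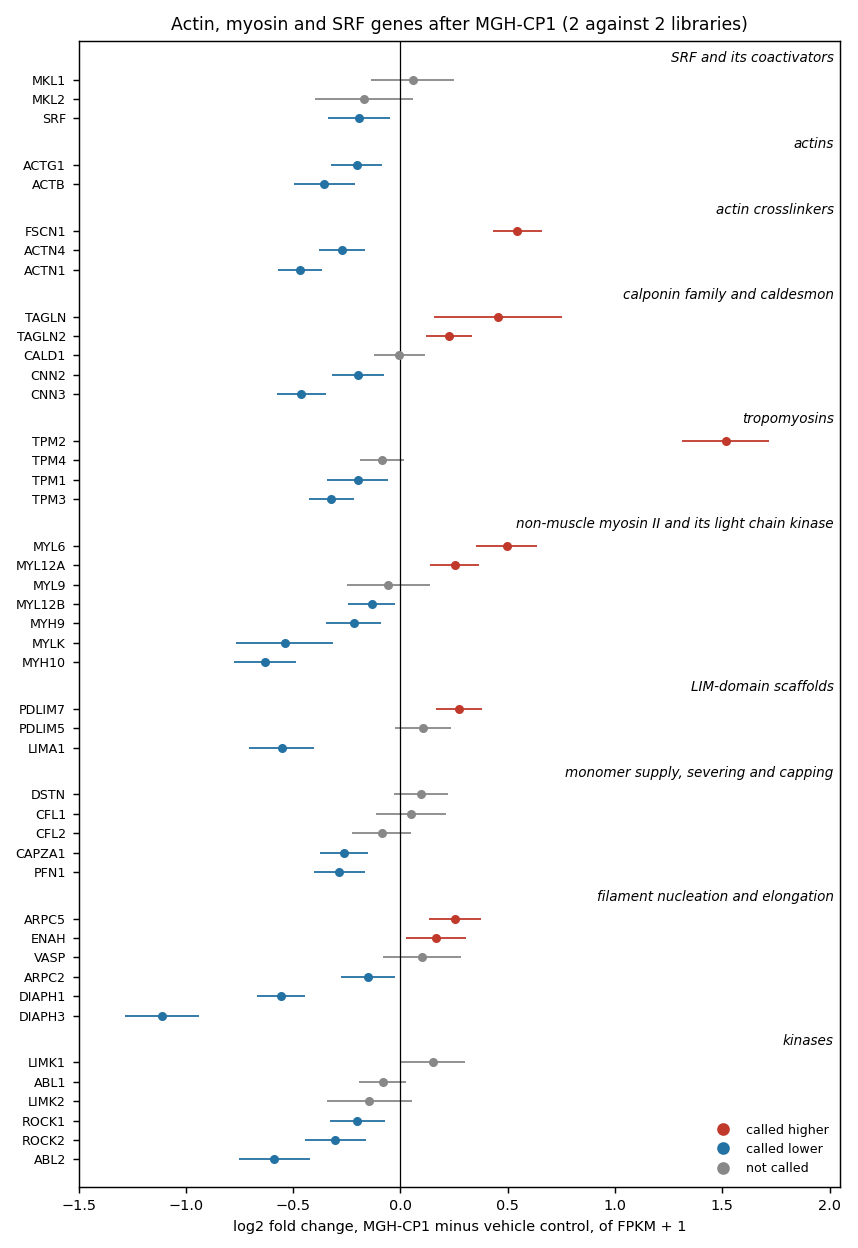
Log2 fold change of FPKM + 1, MGH-CP1 minus vehicle control, with 95% intervals for the 44 genes tested, ordered within each role and coloured by call at an adjusted p under 0.05. TPM2 stands far to the right at 1.52 and DIAPH3 far to the left at -1.11, and most roles hold genes on both sides of 0.

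Non-muscle myosin II is a pair of heavy chains with essential and regulatory light chains. The heavy chains fell. MYH10 (chr17:8377523-8534079 in hg19, minus strand), the IIB heavy chain, had 20.3 and 20.2 FPKM in the vehicle control and 12.2 and 13.2 after MGH-CP1, with a log2 fold change of -0.63 ± 0.06 (SE) with an adjusted p of 1.38e-04. MYH10 had 1703 to 4003 fragments and lies opposite NDEL1, which had 958 to 1436. MYH9, the IIA heavy chain and the bulk of the myosin, had 330 and 352 FPKM against 283 and 304, a log2 fold change of -0.22 whose call was lost without MGH-CP1 replicate 1 (adjusted p = 0.105) and with no filter (0.107), and which was -0.35 under quantile normalization. MYH10 made up 5.78% and 5.42% of the heavy chain FPKM in the vehicle control and 4.13% and 4.17% after MGH-CP1.

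The light chains moved in both directions. MYL6, the essential light chain (chr12:56551945-56557280 in hg19, plus strand), rose from 103 and 115 FPKM to 149 and 158, a log2 fold change of 0.49 ± 0.06 (SE, adjusted p = 4.04e-04). It lies opposite SMARCC2, which had 1706 to 2726 fragments beside 4108 to 4575 for MYL6. Of the regulatory light chains, MYL12A rose by 0.25 on the log2 scale (adjusted p = 0.00366, and by 0.15 with the length trend removed), MYL12B fell by 0.13 (adjusted p = 0.0428, a call lost whichever library was left out, with adjusted p from 0.0612 to 0.240) and MYL9 stood at -0.06 and was not called. MYL12A went from 17.8% and 16.7% of the regulatory light chain FPKM to 21.3% and 21.4%, while the sum of these chains went from 425 and 429 FPKM to 418 and 405. MYLK, the kinase that phosphorylates these chains, had 13.1 and 12.4 FPKM in the vehicle control and 7.51 and 9.46 after MGH-CP1. Its change on the log2 scale was -0.54 ± 0.10 (adjusted p = 0.00259), and it was not called with no filter on low values (adjusted p = 0.0616).

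LIM-domain scaffolds went in both directions. LIMA1, which stabilises and crosslinks filaments, had 53.2 and 47.8 FPKM in the vehicle control and 32.9 and 35.2 after MGH-CP1, with a log2 fold change of -0.55 ± 0.07 (SE, adjusted p = 3.20e-04). PDLIM7 had 86.5 and 88.2 FPKM against 108 and 104, a log2 fold change of 0.27 ± 0.05 (adjusted p = 0.00183). PDLIM5 stood at 0.10 and was not called, although its groups were apart.

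Of the genes that supply, sever and cap, PFN1 and CAPZA1 fell and the cofilin family held no call. PFN1, the profilin that feeds monomers to formins, had 528 and 495 FPKM in the vehicle control and 412 and 426 after MGH-CP1, with a log2 fold change of -0.29 ± 0.05 (SE, adjusted p = 0.00252) that was not called with no filter on low values (0.0533). CAPZA1, a subunit of the capping protein of filament ends, had 104 and 98.5 FPKM against 84.9 and 83.6, a log2 fold change of -0.26 ± 0.05 (adjusted p = 0.00286). It lies opposite ST7L, which had 325 to 463 fragments beside 4439 to 8007 for CAPZA1. Outside the group, CAPZA2 stood at -0.06, CAPZB at -0.02 and PFN2 at 0.12, none called, and CAPG was called higher at 0.69. These genes were chosen after their values were seen. The severing proteins CFL1, CFL2 and DSTN stood at 0.05, -0.09 and 0.10, and none was called. CFL1 was called higher without vehicle control replicate 2, at 0.16 (adjusted p = 0.0249). The ratio of PFN1 to the summed FPKM of ACTB and ACTG1 was 0.0942 and 0.0918 in the vehicle control and 0.0956 and 0.0925 after MGH-CP1, with overlapping groups.

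The formins of the group fell, and the other nucleation and elongation genes were mixed. DIAPH3 (chr13:60239717-60738121 in hg19, minus strand), a formin that extends straight filaments and is also known for its part in cytokinesis, had 27.8 and 24.3 FPKM in the vehicle control and 11.2 and 11.8 after MGH-CP1. Its change on the log2 scale was -1.11 ± 0.07 (SE, adjusted p = 3.24e-05), place 13 in the order of falls among the 12080 genes tested. DIAPH1, a formin of the same family, had 63.3 and 63.1 FPKM against 41.9 and 43.4, a log2 fold change of -0.56 ± 0.05 (adjusted p = 8.01e-05). DIAPH3 went from 30.5% and 27.8% of their summed FPKM to 21.1% and 21.4%.

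The Arp2/3 subunits ARPC5 and ARPC2 differed in direction. ARPC5 had 90.1 and 97.5 FPKM against 113 and 111, a log2 fold change of 0.25 ± 0.05 (SE, adjusted p = 0.00487) that was not called with no filter on low values (0.0514). ARPC2 stood at -0.15 with an adjusted p of 0.0496, which left the call without vehicle control replicate 1 (0.226, at -0.09), MGH-CP1 replicate 1 (0.101) or MGH-CP1 replicate 2 (0.206). ENAH and VASP, which lengthen filaments at the leading edge, stood at 0.17 (adjusted p = 0.0479) and 0.10 (adjusted p = 0.323). The call of ENAH was lost whichever library was left out, with adjusted p from 0.0810 to 0.191, and under median-ratio scaling (0.0611), and VASP was called higher without vehicle control replicate 2, at 0.23 (adjusted p = 0.0117).

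Of the 6 kinases of the group, 3 were called lower and none higher, where the shares over all genes were 23.8% and 27.1%. ABL2, a tyrosine kinase that binds actin (chr1:179068462-179198819 in hg19, minus strand), had 16.3 and 16.7 FPKM in the vehicle control and 10.0 and 11.3 after MGH-CP1, with a log2 fold change of -0.59 ± 0.07 (SE, adjusted p = 3.54e-04). Its paralogue ABL1 had 43.3 and 43.5 FPKM against 40.8 and 41.1, a log2 fold change of -0.08 with a 95% interval of -0.19 to 0.03 (adjusted p = 0.183). ABL2 thus went from 27.3% and 27.8% of the summed FPKM of the pair to 19.7% and 21.5%. ROCK2, a kinase that promotes myosin contraction, had 27.4 and 24.98 FPKM against 20.9 and 21.1, a log2 fold change of -0.30 ± 0.06 (adjusted p = 0.00415). ROCK1 had 22.7 and 21.7 FPKM against 19.3 and 19.1, a log2 fold change of -0.20 ± 0.06 (adjusted p = 0.0170), and its call was lost without vehicle control replicate 1 (adjusted p = 0.0819), MGH-CP1 replicate 1 (0.0610) or MGH-CP1 replicate 2 (0.0728). The LIM kinases, which phosphorylate cofilin, stood at 0.15 for LIMK1 and -0.15 for LIMK2, and neither was called (adjusted p = 0.0826 and 0.192).

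**Figure D3:**
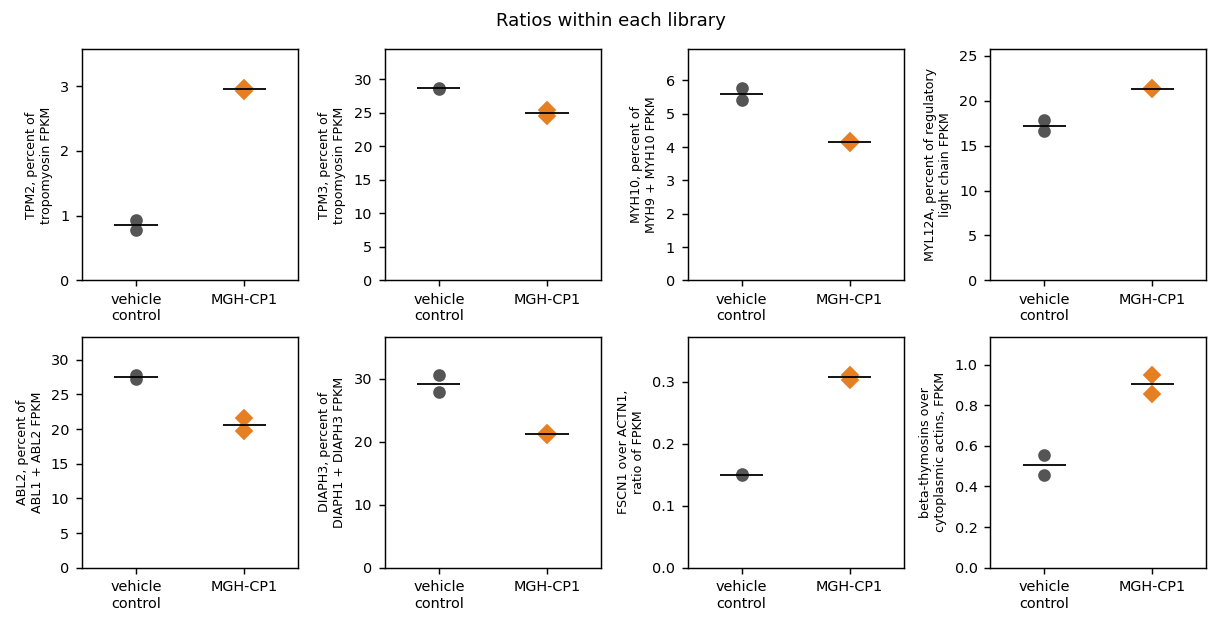
Ratios of FPKM within each library, on axes that start at 0, with circles for the 2 vehicle control libraries, diamonds for the 2 MGH-CP1 libraries and bars for their means. TPM2 rose from under 1% to about 3% of the tropomyosins, and in each of the 8 panels, picked from more ratios, the groups are apart. Among the ratios not drawn, that of PFN1 to the actins overlapped, as did the share of CFL1 in its family. For single genes, the groups were apart in 77.2% of all genes tested.

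The letters in the promoters can be set beside these values. The values are of whole genes, while a window can belong to an internal start, as for MYLK. Of the 7 genes with a CArG box, all tested, 6 were called lower (SRF, ACTG1, ACTN1, CNN2, MYLK and ROCK2), TPM4 was below 0 without a call, and none was called higher. Of the 10 tested genes with CATTCC or its reverse complement, 8 were called lower, none higher, and all 10 were below 0, where CALD1 lay at 0.00 and moved above 0 under quantile normalization (0.0280) and without vehicle control replicate 1 (0.0367). None of the 7 higher genes with a window held either kind of match in the 250 bases before the start. Those bases held CATTCC for 14.3% of all RefSeq genes with a window, so 7 genes are too few to read its absence. In the whole promoter window, which includes 50 bases after the start, MYL12A, called higher, held CATTCC or its reverse complement. So did MYLK, called lower. The whole window gave 13 of the 42 genes with these letters and 7 with a CArG box. Over the 9375 tested genes of the whole table that had a window, which are 77.6% of those tested, 33.1% of the 139 with a CArG box were called lower and 28.8% higher. Of the 1232 such genes with CATTCC, 27.4% were called lower and 26.4% higher. In the group as a whole, matched or not, 22 of the 44 genes tested were called lower and 29 were below 0. The match with CATTCC is common, and a window of 250 bases leaves out distal sites. Any link of the letters with the falls was not tested.

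Gene length moved with the direction of the change. The median length in the deposited table was 2147 bases for the 9 higher genes and 4120.5 for the 22 lower genes. Across the 44 genes, which share the same 4 libraries, the Spearman rank correlation between length and log2 fold change was -0.459, and across all genes tested it was -0.155. Removing the trend of each library on length took these to -0.301 and -0.00457. The part of length in the results was otherwise not tested.

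Other genes of the actin cytoskeleton, in lists written from general knowledge, were mixed. Of 113 tested of 132, 30 were higher (26.5%) and 32 lower (28.3%), near the 27.1% and 23.8% over all genes tested, against which the counts in each list below can also be read. Their median log2 fold change was -0.04. Of the other SRF-MRTF target genes, 14 of 20 were tested, 8 were lower and 2 higher. The falls in this list reached -0.82 for NEXN, an actin-binding protein, at 10.2 and 9.25 FPKM against 5.20 and 4.93, and -0.40 for FLNC, a filamin. The rises were ITGA5, the fibronectin receptor subunit, at 0.66, and TES, at 0.17, whose call was lost without vehicle control replicate 2 (adjusted p = 0.144) or MGH-CP1 replicate 1 (0.236). Of the immediate early genes that SRF drives with TCF factors, 4 of 9 were tested. JUNB rose by 0.60 and IER2 by 0.43, and IER2 was not called with no filter on low values (adjusted p = 0.108). EGR1 stood at -0.11 and MCL1 at -0.14, neither called, each with both MGH-CP1 libraries below both vehicle control libraries. FOS, chosen after its values were seen, was under the filter. It had 0.928 and 1.31 FPKM in the vehicle control and 0.541 and 0.606 after MGH-CP1, from 21 to 72 fragments.

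Severing, capping and monomer genes outside the group showed 7 higher (36.8%) and 3 lower (15.8%) of 19 tested. GSN, which encodes gelsolin, a severing and capping protein, had 29.3 and 28.9 FPKM in the vehicle control and 63.2 and 57.5 after MGH-CP1, with a log2 fold change of 1.03 ± 0.06 (SE, adjusted p = 2.05e-05). TWF2, a twinfilin, rose by 0.81 (adjusted p = 1.28e-04), while CAP2 stood at -0.70 and TMOD3 at -0.31, both called lower. The beta-thymosins TMSB4X and TMSB10, which hold monomers out of filaments, rose by 0.52 (adjusted p = 1.13e-04) and 0.55 (adjusted p = 0.00364), as values chosen after they were seen. Summed, their FPKM stood at 0.458 and 0.557 of that of ACTB and ACTG1 in the vehicle control and at 0.948 and 0.857 after MGH-CP1.

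The Arp2/3, WAVE and cortactin genes outside the group showed 2 higher and 2 lower of 17. CTTN, which encodes cortactin, rose by 0.47 from 80.7 and 87.0 FPKM to 120 and 113 (adjusted p = 3.18e-04). BRK1 stood at 0.15, WASF1 at -0.22 and ABI2 at -0.21, and the call of each was lost in at least 3 of the 4 fits that left out a library. Of the other formins and EVL, 8 of 10 were tested, 4 rose and none was called lower, with INF2 at 0.34 and FHOD1 at 0.31, where DIAPH1 and DIAPH3 of the group had both been called lower.

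Crosslinkers and membrane linkers outside the group showed 6 higher and 5 lower of 18. PDLIM4 stood at 0.71 and SYNPO at 0.70, and LIMCH1 at -0.44 and SPTAN1 at -0.29. Other myosins, small GTPases and their partners showed 7 in each direction of 26 tested. RHOB, a small GTPase known as an early response gene, rose by 1.26 from 11.5 and 10.6 FPKM to 30.4 and 25.6 (adjusted p = 3.26e-05), MYO18A stood at 0.59 and PAK2 at -0.38.

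The cytokinesis genes, which build and close the contractile ring of dividing cells, were lower in 7 of 7, with a median of -0.76. KIF23 had 46.2 and 42.4 FPKM in the vehicle control and 19.8 and 20.4 after MGH-CP1, with a log2 fold change of -1.10. ANLN, which encodes anillin, had 151 and 139 FPKM against 67.8 and 73.4, a log2 fold change of -1.03. DIAPH3, at -1.11, and MYH10, at -0.63, lay within or beside the range of these 7 genes, -1.10 to -0.61, and the part of cell division in their values was not tested.

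A set of migration genes had been picked for qPCR in the same work. Of its 6 genes, 5 were lower, ABL2 and CNN3 of the group among them, and the set is not independent evidence of a direction. MACF1, which links actin and microtubules, had 20.03 and 20.01 FPKM against 15.4 and 15.7, a log2 fold change of -0.35 (adjusted p = 0.00133). With the length trend removed it stood at -0.11 and was not called (adjusted p = 0.141). PARD3, a polarity scaffold, stood at -0.27 (adjusted p = 0.00603), PHLDB2 at -0.38 (adjusted p = 0.00212) and DOCK5, an activator of Rac, at -0.14 without a call (adjusted p = 0.167), although its groups were apart.

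**Figure D4:**
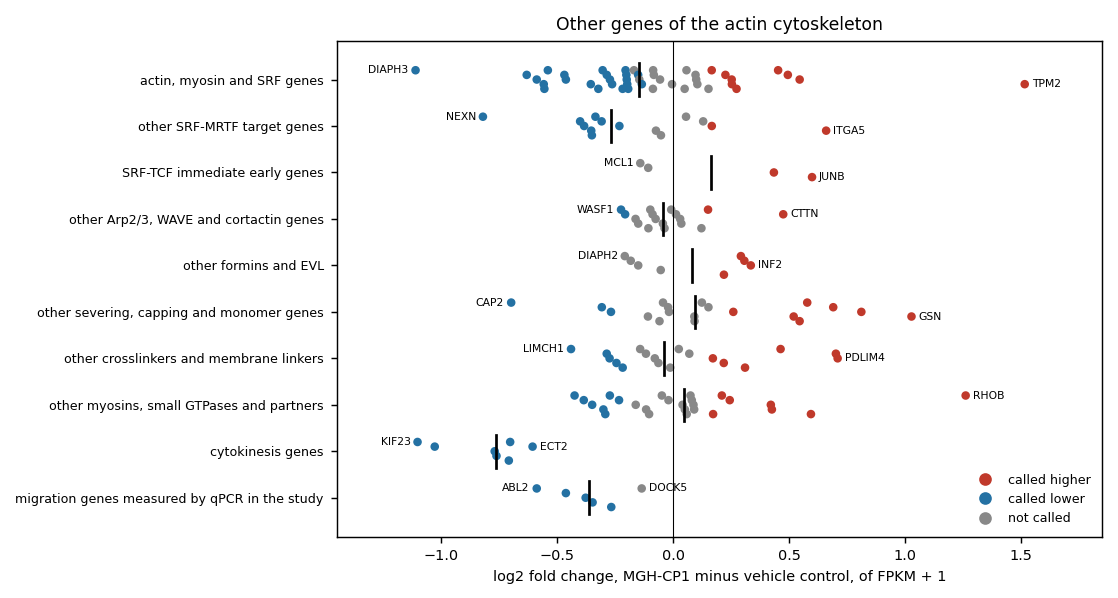
Log2 fold change of FPKM + 1, MGH-CP1 minus vehicle control, of each gene tested in the group and in 9 other lists, coloured by call, with a black bar at the median and the names of the lowest and highest gene of most lists. All 7 cytokinesis genes lie at or below -0.605, and the other lists spread to both sides of 0 apart from the migration genes.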

How the data were processed

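Poly-T selected RNA of 4 libraries was sequenced. The authors deposited FPKM for 48162 genes with hg19 coordinates and a fixed length per gene; per the labels the processing used CASAVA 1.8 and STAR, and the counting tool is not given in the sources used here. Columns were matched to samples by condition and replicate number. Multiplied by length, 100% of the FPKM values were whole fragments (tolerance 0.01), which gave the library totals and the fragments quoted; counts of 0 are read against 3 fragments, which covers counting error only.

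Log2(FPKM + 1) of the 12080 genes with a mean of at least 1 FPKM was compared with limma 3.58.1 in R 4.3.3 (variance trend, 5.97 prior degrees of freedom, two-sided), adjusted by Benjamini-Hochberg over all genes tested, with a threshold of 0.05. Fold changes on this scale understate those of low genes. An exact permutation test of 2 against 2 libraries cannot go below p = 0.333. The script was tested on simulated data.

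The genes of the group and the lists were chosen with earlier results of these data known. All members may be named. Full values are given for ABL2, CNN3, ACTB, the SRF genes and up to 3 called genes per role with the largest changes, and for other lists up to 2 called genes a direction whose groups were apart; others are said to be chosen after their values were seen. LIMK1 has a second row at 0, which was not used. PECAM1 of the marker list was not analysed here. The value of 1 gene of the other lists is not reported here. Of 6 muscle markers 5 were under the filter.

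Alternatives were a pseudocount of 0.1, no filter, a mean of at least 5 FPKM, no variance trend, the replicate number as a block, quantile normalization, median-ratio scaling, limma voom on the recovered fragments, an adjusted p under 0.01, the whole promoter window and leaving out each library. Library totals without the group and removal of a length trend were chosen after seeing the data.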

Additional observations from a re-analysis of the deposited data

How the results depend on the processing

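Of the 31 genes of the group that were called, 16 kept the call in every one of 15 alternatives, 10 lost it when a library was left out and 5 others lost it only with no filter or at a stricter threshold. The lone library left in a condition was then assumed to vary like the others. The median of the group was -0.16 with a pseudocount of 0.1, with median-ratio scaling, with limma voom and with the length trend removed, -0.18 with quantile normalization, -0.15 with library totals without the group, and -0.16 to -0.12 when a library was left out; the 4 pairs of libraries gave -0.14 to -0.13. With no filter on low values, 1844 genes of the table, 12 genes of the group and 20 genes of the other lists were lower and 5 of the group were higher, and the cause was not tested. At an adjusted p under 0.01, 14 genes of the group were lower and 7 higher, beside 15.9% and 18.8% of all genes tested. When a library was left out, 15 to 19 were lower and 7 to 9 higher. Uncalled genes changed sign, CALD1 to 0.0280 with quantile normalization and CFL1 to -0.0184 with the length trend removed. Across the fits without a library CALD1 ranged from -0.0454 to 0.0367, CFL1 from -0.0601 to 0.160, VASP from -0.0254 to 0.23, MKL1 from -0.0214 to 0.137 and MYL9 from -0.176 to 0.0642. MACF1 stood at -0.11 with the length trend removed and lost its call (adjusted p = 0.141). MKL2, at -0.23, and DOCK5, at -0.15, were called lower by limma voom (adjusted p = 0.0482 and 0.0448). With the replicate number as a block, 3466 genes of the table were higher and 3052 lower, and 9 and 22 of the group; libraries with the same number did not deviate together (correlation 0.0777), so the numbers were not taken as pairs. The depth of 17577930 to 25508824 fragments limits ACTA2, CNN1 and TAGLN.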

Other observations

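The methods of the study name GAPDH and beta-actin, encoded by ACTB, as qPCR references, and not which of them served the migration genes. The study reported those genes as significantly lower by qPCR after MGH-CP1. The fall of ACTB in these libraries changes what a ratio to it shows. GAPDH had 911 and 897 FPKM in the vehicle control and 986 and 968 after MGH-CP1, with a log2 fold change of 0.11 that was not called (adjusted p = 0.0812). As differences of mean log2 FPKM with no pseudocount, CNN3 was at -0.46 as it stands, at -0.11 relative to ACTB and at -0.58 relative to GAPDH. ABL2 was at -0.63, -0.28 and -0.74 by the same 3 measures. PARD3 was at -0.28, 0.07 and -0.40 and DOCK5 at -0.15, 0.21 and -0.26, so both changed sign with ACTB as the reference and kept it with GAPDH. MACF1 and PHLDB2, the remaining genes of the qPCR set, were at -0.01 and -0.05 relative to ACTB and at -0.48 and -0.52 relative to GAPDH. These are values of the RNA-seq libraries with no test, and no qPCR data were analysed here.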
